A study of Mus musculus with 6 samples.

Results

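Cholesterol synthesis in the mouse testis was followed through 7 genes, Hmgcs1, Idi1, Fdft1, Sqle, Lss, Cyp51 and Srebf2, taken by name from the 32285 genes counted. Their unique molecular identifiers (UMIs, tags that count each captured mRNA molecule once) were read in 6 single-cell libraries of testis from C57BL/6 wildtype mice (C57BL/6N in the study's methods) that were 8 weeks old. The mice had eaten food rich in fat (HFD, high-fat diet) or poor in fat (LFD, low-fat diet) for 2 weeks, with 3 libraries per diet, and the labels name no other treatment or allele. The question put to the genes was how their mRNA is spread over spermatogenesis and whether the diet shifted it.

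Cholesterol is made from acetyl-CoA by a chain of enzymes that first build isoprenoid units, join them into squalene and then close and trim the sterol rings. SREBP2, the product of Srebf2, is the transcription factor that turns these enzymes on together when membrane sterol is low. In the testis the chain feeds membranes of dividing cells and steroid synthesis in Leydig cells, and meiotic and postmeiotic germ cells are known for accumulating the sterol intermediates that CYP51 makes.

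The libraries held between 5753 and 11095 barcodes and between 39196921 and 95845514 UMIs each, 48939 barcodes in all, and 12 to 28 barcode sequences were shared by any pair of libraries. The diet of each library follows its label, but in all 6 cases the name of the deposited file carries the other diet. Each library is therefore called by its label, and every diet difference below changes sign if the file names are right. The replicate 1 library of each diet held 8 and 5 haemoglobin UMIs, 0.0835 and 0.0649 counts per 1000000 UMIs (CPM), against 30.6 to 99.8 CPM in the other 4 libraries.

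Barcodes were placed in cell classes by marker genes, none of them among the 7 genes, and 11148 barcodes met a marker gate. The 8 germ cell classes held 263 to 3119 barcodes each, in the order spermatogonia, early meiotic prophase, pachytene and late spermatocytes, early and later round spermatids, spermatids starting elongation and elongating spermatids. Class names are those of the markers, so each is spermatogonium-like, pachytene-like and so on. Markers kept out of the gates were highest in their own class for 7 of 7 genes in early prophase and 6 of 6 in elongating spermatids, for 3 of 6 in spermatogonia, 2 of 5 in pachytene and 4 of 6 in late spermatocytes, and for 0 of 4 in early round, 0 of 5 in later round and 0 of 3 in spermatids starting elongation. The 3 spermatid classes before elongating spermatids therefore rest on their gate genes. Levels are CPM, the gene's UMIs scaled by all UMIs of that class in that library. Less mRNA per cell and fewer expressing cells cannot be told apart in such sums.

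Genome positions are those of the GRCm38 (mm10) annotation. Cyp51 (ENSMUSG00000001467) lies on the minus strand at chr5:4081145-4104746, Srebf2 (ENSMUSG00000022463) on the plus strand at chr15:82147181-82205379 and Hmgcs1 (ENSMUSG00000093930) on the plus strand at chr13:119690379-119708260. Idi1 lies at chr13:8885501-8892451, Fdft1 at chr14:63145150-63179578, Sqle at chr15:59315077-59331192 and Lss at chr10:76531588-76557138. Of the 7, Sqle alone overlapped no other annotated gene, and Srebf2 alone overlapped genes on its own strand (Mir33 and Gm49502), so reads in that overlap cannot be assigned with certainty.

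The RefSeq promoter sequences (GRCm38.p6) had an entry for 5 of the 7 genes. The stretches upstream of Cyp51, Srebf2 and Hmgcs1 are shown because they hold letters known from sterol and cAMP control. Capitals mark matches on either strand to a sterol regulatory element core (TCACNCCA), to the CCAAT box and to a cAMP response element half-site (TGACG). Each stretch ends at the annotated start of the gene or at the RefSeq start, whichever lies first.
Cyp51: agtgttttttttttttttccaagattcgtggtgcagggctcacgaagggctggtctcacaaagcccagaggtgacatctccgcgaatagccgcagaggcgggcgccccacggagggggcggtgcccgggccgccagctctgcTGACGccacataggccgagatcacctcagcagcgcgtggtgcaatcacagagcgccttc
Srebf2: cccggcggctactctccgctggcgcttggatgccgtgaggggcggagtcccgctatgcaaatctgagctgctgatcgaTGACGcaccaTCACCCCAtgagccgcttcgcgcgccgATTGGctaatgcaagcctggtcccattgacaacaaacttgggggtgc
Hmgcs1: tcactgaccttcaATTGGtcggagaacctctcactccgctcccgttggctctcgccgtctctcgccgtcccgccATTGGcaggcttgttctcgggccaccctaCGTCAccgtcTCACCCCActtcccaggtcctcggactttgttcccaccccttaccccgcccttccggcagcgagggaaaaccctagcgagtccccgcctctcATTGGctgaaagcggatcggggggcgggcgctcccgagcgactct
The stretches are chr5:4104747-4104947 (minus strand), chr15:82147019-82147180 (plus strand) and chr13:119690101-119690350 (plus strand). The letters of the sterol element core were chosen with these windows already seen, after a shifted form had matched Hmgcs1 but not Srebf2. Among 32851 mouse promoter windows of 250 bases, 3.67% held the sterol element core, 33.8% a CCAAT box and 17.8% the half-site. The core was matched once in the 250-base window of Srebf2, 162 bases before the RefSeq start, and once in that of Hmgcs1, 137 bases before its RefSeq start, and was not matched in those of Cyp51, Idi1 and Lss. The half-site was matched once each in Cyp51 (108 bases before the RefSeq start), Srebf2 and Hmgcs1, and a CCAAT box at least once in all 5 windows, in Cyp51 29 bases before the RefSeq start and outside the stretch printed. Fdft1 and Sqle had no entry. A match describes letters in a window and not a site in use. A window without a match lacks these exact letters only and may hold other forms of the element.

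The 7 genes did not follow a common course through spermatogenesis. As a share of UMIs, Srebf2, Lss and Hmgcs1 had their highest mean level in spermatogonia, Fdft1 and Sqle in early round spermatids, Idi1 in later round spermatids and Cyp51 in spermatids starting elongation. Between its highest and lowest germ class, mean CPM differed 45.2-fold for Lss, 44.3-fold for Cyp51, 12.4-fold for Srebf2, 6.67-fold for Hmgcs1, 5.84-fold for Idi1, 5.69-fold for Fdft1 and 4.98-fold for Sqle. Counted as UMIs per barcode, Hmgcs1 was instead highest in spermatids starting elongation and Idi1 in early round spermatids, and the other 5 genes kept their highest class. The range per barcode was 50.9-fold for Cyp51, 32.2-fold for Lss, 31.4-fold for Fdft1, 17.2-fold for Sqle, 16.4-fold for Idi1, 13.3-fold for Srebf2 and 11.5-fold for Hmgcs1, so the order of the genes depends on the scale. For Cyp51 the mean over libraries of the log2 ratio of CPM + 0.5 was 5.41 (42.4-fold) from pooled UMIs and 4.66 (25.3-fold) from means over barcodes.

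**Figure D1:**
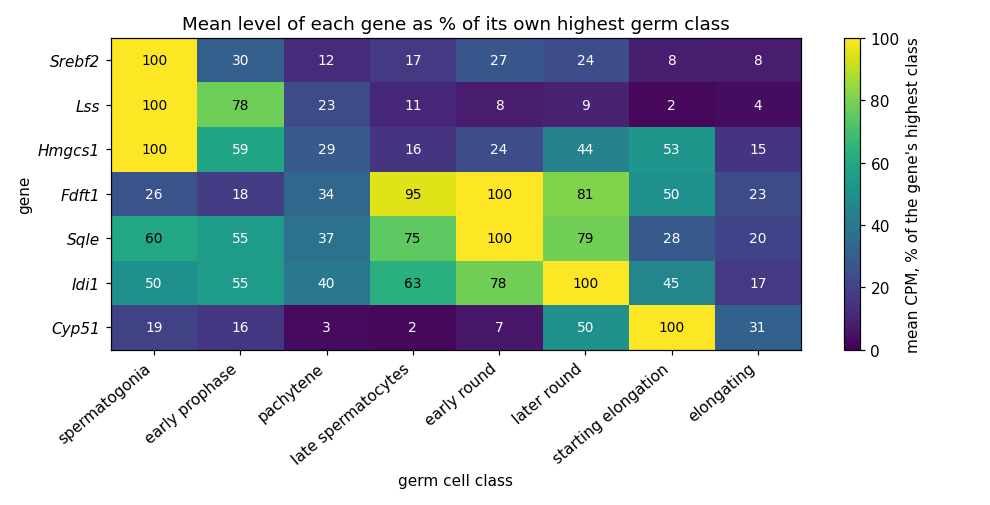
Mean CPM of 6 libraries for each gene (rows) in each germ cell class (columns, in developmental order), as a percentage of that gene's own highest class. Srebf2, Lss and Hmgcs1 peak in spermatogonia, Fdft1, Sqle and Idi1 peak in round spermatids, and Cyp51 peaks in spermatids starting elongation after 2.26% of that level in late spermatocytes.

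Each of the 7 steps between neighbouring classes was tested with edgeR's quasi-likelihood test on the class sums of each library, with library as a term. The 7 genes are read against the share of all 16460 genes called in each direction. From spermatogonia to early prophase none of the 7 was higher and 3 were lower, where 24.9% of all genes were higher and 24.9% lower (49.8% in either direction). Into pachytene 1 was higher and 5 were lower (30.1% and 43.8% of all genes, 73.9% together), and into late spermatocytes 4 were higher and 2 lower (30.8% and 36.9%, 67.8% together). The entry into early round spermatids had 5 higher and none lower (22.6% and 21.2%, 43.9% together), and the change to later round spermatids 3 higher and none lower (26.9% and 19.4%, 46.3% together). At the start of elongation 2 were higher and 4 lower (26.5% and 28.4%, 54.8% together), and in elongating spermatids none was higher and 4 were lower (29.2% and 21.1%, 50.3% together). In all, 33 of 49 gene and step pairs were called, 15 higher and 18 lower.

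TMM scaling, which was used for the test, set the median of all genes between 0.04 and 0.52 log2 units above its place under library totals, most at the start of elongation. Of the 33 calls, 27 were made in the same direction by TMM, library totals and DESeq2, and 20 of those also went that way in 6 of 6 libraries when UMIs were counted per barcode instead. With 6 libraries the smallest two-sided p of an exact sign-flip test on log2(CPM + 1) is 0.0312, reached by 35 of the 49 pairs (0.0438 after Benjamini-Hochberg adjustment over the 49).

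**Figure D2:**
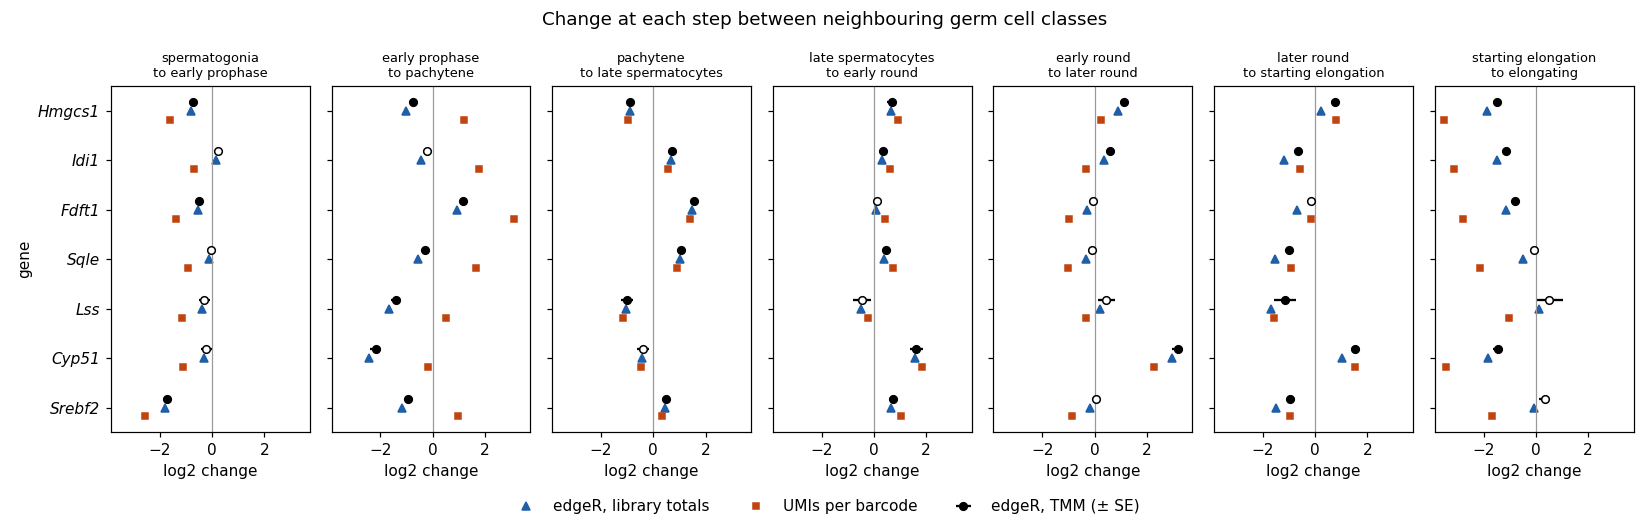
Log2 change of each gene (rows) at each step between neighbouring germ cell classes (panels), by edgeR with TMM scaling (circles with SE, filled where adjusted p was under 0.05, open where not), by edgeR with library totals (triangles) and as UMIs per barcode (squares). In the step from early prophase to pachytene Hmgcs1, Idi1, Sqle, Lss and Srebf2 lie below 0 as a share of UMIs and above 0 per barcode.

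Srebf2, the gene of the sterol-responsive transcription factor, had its high level in spermatogonia. Its CPM there ran from 46.8 through a median of 76.9 to 81.6 over the 6 libraries, against 16.5, 18.8 and 38.7 in early prophase, with no overlap. The drop was 1.71 ± 0.16 (SE) on the log2 scale (edgeR adjusted p 4.5e-13, lower in 6 of 6 libraries). It fell by a further 0.94 ± 0.17 into pachytene (adjusted p 1.7e-06), to a median of 8.74 CPM, although UMIs per barcode changed by log2 0.96 the other way at that step (exact sign-flip p 0.0938). Pachytene barcodes were deeper, with a median of 7070 to 54297 UMIs per library against 6680 to 9469 in early prophase.

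Srebf2 then came back in part before falling again. Its level rose by log2 0.47 ± 0.15 into late spermatocytes (edgeR adjusted p 0.004, not called with a stricter gate, adjusted p 0.26) and by 0.72 ± 0.16 into early round spermatids (adjusted p 0.00014), where CPM was 15.2, 17.9 and 27.6 as lowest, median and highest library. Early and later round spermatids did not differ beyond their spread in CPM (exact sign-flip p 0.344, later round 15.2 to 18.3 CPM), but DESeq2 called later round higher (log2 0.38, adjusted p 0.034) and per barcode it was lower in 6 of 6 libraries (-0.86, exact sign-flip p 0.0312). At the start of elongation it fell by 0.95 ± 0.17 (edgeR adjusted p 3.3e-06) to 4.23 to 7.61 CPM, and elongating spermatids held 4.97 to 6.60 CPM. Over the last step the sign depends on the scale, log2 0.34 by TMM (adjusted p 0.15), -0.09 by library totals (adjusted p 0.75) and 0.59 by DESeq2 (adjusted p 0.011).

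Hmgcs1, which encodes the cytosolic HMG-CoA synthase that feeds the first committed steps, shared the spermatogonial peak as a share of UMIs and had a second rise after meiosis. Per 1000 barcodes the second rise was the higher, with means of 1942 UMIs at the start of elongation and 1314 in spermatogonia. In spermatogonia it measured 61.9, 77.5 and 102 CPM as lowest, median and highest library, and in late spermatocytes 9.47, 12.6 and 16.2 CPM. The successive falls were 0.73 ± 0.16, 0.75 ± 0.15 and 0.87 ± 0.15 on the log2 scale into early prophase, pachytene and late spermatocytes (edgeR adjusted p 7.9e-05, 1.3e-05 and 8.4e-07). Hmgcs1 CPM was lower in early prophase than in spermatogonia in 5 of 6 libraries (exact sign-flip p 0.0625). Without LFD replicate 3, whose early prophase value of 63.96 CPM stood apart from 40.8 to 47.6 in the others, it fell by 0.54 at the middle step (edgeR adjusted p 0.00028). That step was not called with a stricter gate (edgeR adjusted p 0.12) or with no filter on low counts (-0.30, adjusted p 0.11). Per barcode it ran the other way, by log2 1.19 (exact sign-flip p 0.0625).

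The second rise of Hmgcs1 began in round spermatids. It increased by log2 0.68 ± 0.17 into early round spermatids (edgeR adjusted p 0.00076), in 5 of 6 libraries (exact sign-flip p 0.0625), which was not called by DESeq2 (0.35, adjusted p 0.070) or without both replicate 1 libraries (edgeR adjusted p 0.054). It increased by 1.14 ± 0.16 into later round spermatids (adjusted p 1.1e-08), where the median library held 36.3 CPM and the lowest 30.7 CPM. A further increase at the start of elongation, log2 0.74 ± 0.14 by TMM (adjusted p 6.6e-06), was not called by library totals (0.22, adjusted p 0.21) or DESeq2 (0.15, adjusted p 0.35). Per barcode the same step was 0.78, higher in 6 of 6 libraries. In elongating spermatids Hmgcs1 fell to 0.284 times its mean CPM (edgeR adjusted p 1.7e-11), at 6.83, 10.4 and 23.3 CPM.

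Idi1, the isomerase that interconverts the isoprenoid building blocks, was counted in every germ class and climbed from pachytene into round spermatids. From early prophase to pachytene its CPM was lower in 6 of 6 libraries (115 ± 17.9 and 83.4 ± 11.4, SD, n = 6, exact sign-flip p 0.0312, 0.0438 adjusted over 49 pairs). TMM did not call that step (edgeR log2 -0.21 ± 0.12, adjusted p 0.10), library totals (-0.46, adjusted p 0.0081) and leaving out likely doublets (-0.29, adjusted p 0.033) did, and per barcode it was higher in 6 of 6 libraries. Its level was 73.4, 79.8 and 99.7 CPM in pachytene and 190, 202 and 237 CPM in later round spermatids, so the 2 classes did not overlap. It rose by log2 0.71 ± 0.11 into late spermatocytes (edgeR adjusted p 2.1e-07), by 0.34 ± 0.12 into early round spermatids (adjusted p 0.012) and by 0.61 ± 0.11 into later round spermatids (adjusted p 1.2e-05). The middle rise was not called by library totals (0.30, edgeR adjusted p 0.12), with no filter on low counts (0.23, adjusted p 0.28) or by DESeq2 (adjusted p over 0.05). Per barcode the last of the 3 ran the other way, by -0.33 (exact sign-flip p 0.0938).

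Elongation reversed the course of Idi1. It fell by 0.66 ± 0.12 at the start of elongation (edgeR adjusted p 2.0e-06) and by 1.15 ± 0.12 in elongating spermatids (adjusted p 3.2e-11), to 16.04, 33.5 and 61.1 CPM. Both falls were seen in 6 of 6 libraries in CPM and per barcode, and library totals and DESeq2 also gave falls. Between the first germ classes no change was called, with 104 ± 32.8 CPM (SD, n = 6) in spermatogonia and 115 ± 17.9 in early prophase (edgeR log2 0.23 ± 0.12, adjusted p 0.13). That step was called higher by DESeq2 (0.50, adjusted p 3.3e-05), without HFD replicate 2 (0.39, edgeR adjusted p 0.035), with a stricter gate (0.54, adjusted p 0.0056) and without likely doublets (0.36, adjusted p 0.018). Per barcode it was lower in 6 of 6 libraries (-0.69, exact sign-flip p 0.0312).

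Fdft1, the squalene synthase gene that commits isoprenoids to sterols, turned up with meiosis. Early prophase held 46.3, 69.4 and 74.1 CPM, pachytene 97.8, 130 and 159, and late spermatocytes 274, 378 and 403, each class above the one before in every library. The rises were 1.18 ± 0.12 and 1.54 ± 0.12 on the log2 scale (edgeR adjusted p 2.4e-12 and 3.8e-17), and they held per barcode, at log2 3.13 and 1.41. Before that, from spermatogonia to early prophase, Fdft1 was lower by 0.48 ± 0.13 (adjusted p 0.0015), a call not made by DESeq2 (adjusted p 0.16) or with a stricter gate (edgeR adjusted p 0.11).

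Late spermatocytes and early round spermatids held the high levels of Fdft1 and did not differ beyond their spread in CPM (355 ± 55.5 against 374 ± 47.2 CPM, SD, n = 6, exact sign-flip p 0.125), while per barcode early round spermatids were higher in 6 of 6 libraries (log2 0.43, exact sign-flip p 0.0312). From there CPM was lower in 6 of 6 libraries at each step. The TMM test did not call the step to later round spermatids (log2 -0.06 ± 0.11, adjusted p 0.72) or the start of elongation (-0.17 ± 0.12, adjusted p 0.20), whereas library totals called both (-0.30 and -0.69, adjusted p 0.045 and 9.8e-06) and DESeq2 called the first higher (0.27, adjusted p 0.025) and the second lower (-0.77, adjusted p 2.3e-12). The direction between early and later round spermatids differed with the scaling. Into elongating spermatids it fell on every scale (by 0.78 ± 0.12 with TMM, edgeR adjusted p 2.0e-07).

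Sqle, the squalene epoxidase gene that opens the oxygen-dependent part of the chain, rose like Fdft1 from pachytene to late spermatocytes, at a smaller range. As a share of UMIs, the rise of Fdft1 from early prophase into pachytene was not shared. Pachytene held 29.5, 37.3 and 45.5 CPM, late spermatocytes 67.0, 76.3 and 88.4 CPM, and early round spermatids 92.1, 99.4 and 123 CPM, without overlap between the 3 classes. The first of these rises was log2 1.06 ± 0.11 (edgeR adjusted p 3.1e-12). The second, 0.45 ± 0.11 (adjusted p 0.00077), was 0.11 by DESeq2 (adjusted p 0.42) and was not called with no filter on low counts (edgeR adjusted p 0.067). At the start of elongation Sqle fell by 1.01 ± 0.12 (adjusted p 1.2e-10) to 19.98, 27.3 and 40.6 CPM, and that fall held on every scale.

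The lower level of Sqle in pachytene than in early prophase depended on the scaling, and its TMM call also on single libraries. CPM was lower in 6 of 6 libraries (exact sign-flip p 0.0312, 0.0438 adjusted over 49 pairs). Library totals called the step lower (log2 -0.56, edgeR adjusted p 0.00031). With TMM it measured -0.30 ± 0.12 on the log2 scale (edgeR adjusted p 0.023). Without any one of HFD replicates 1, 2 and 3 or LFD replicate 3 it lay between -0.20 and -0.12 and was not called, DESeq2 gave 0.09 (adjusted p 0.52), and per barcode the change was 1.65 in the other direction in 6 of 6 libraries.

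Lss, the lanosterol synthase gene that closes the sterol rings, was highest in spermatogonia and early prophase and lowest in spermatids. Its CPM was 13.0, 21.9 and 38.9 in spermatogonia and 11.6, 18.2 and 30.3 in early prophase, which overlap (edgeR log2 -0.29 ± 0.22, adjusted p 0.27). Pachytene held 4.19, 5.61 and 7.04 CPM, a fall of 1.40 ± 0.21 (adjusted p 2.8e-08), and late spermatocytes 2.09, 2.80 and 3.28 CPM, a fall of 1.01 ± 0.22 (adjusted p 5.5e-05). Per barcode the first of these falls was a change of 0.50 in the other direction (exact sign-flip p 0.219) and the second was the same way in 6 of 6 libraries.

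Counting depth limits Lss in spermatids. The 432 barcodes of spermatids starting elongation held 13 Lss UMIs in all, between 0 and 8 per library, and the 0 of LFD replicate 3 allows up to 2.54 CPM. The fall into that class, 1.15 ± 0.40 (edgeR adjusted p 0.012), was not called without HFD replicate 2 (adjusted p 0.054), with a stricter gate (adjusted p 0.18) or without likely doublets (adjusted p 0.15), and the fold of 45.2 above rests on those 13 UMIs. The 2502 elongating barcodes held 27 Lss UMIs, and the order of the last 2 classes is not resolved (exact sign-flip p 0.5). Without LFD replicate 1, the library with 8 of the 13 UMIs, elongating spermatids were called higher (log2 1.71, edgeR adjusted p 0.014).

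Cyp51, the lanosterol 14α-demethylase gene, had the steepest single step of the 7 genes as a share of UMIs, after meiosis. Before that it was present in spermatogonia (49.2, 56.3 and 70.1 CPM) and early prophase (40.4, 46.9 and 52.2 CPM) and reached its low in late spermatocytes (4.78, 6.08 and 10.0 CPM). It fell by 2.17 ± 0.21 on the log2 scale into pachytene (edgeR adjusted p 3.7e-13), while per barcode that step was -0.19, lower in 4 of 6 libraries (exact sign-flip p 0.219). No library overlapped between early prophase and the 2 spermatocyte classes that follow it.

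After meiosis Cyp51 rose over 3 steps in succession. It increased by log2 1.62 ± 0.24 into early round spermatids (edgeR adjusted p 9.7e-08), by 3.19 ± 0.21 into later round spermatids (adjusted p 9.5e-19) and by 1.54 ± 0.18 at the start of elongation (adjusted p 5.7e-11). CPM went from 9.43, 19.9 and 31.3 in early round to 125, 147 and 181 in later round and 248.6, 292 and 337 at the start of elongation. Every library rose at each of the 3 steps in CPM and per barcode, with per-barcode changes of 1.85, 2.28 and 1.54. Library totals and DESeq2 also gave rises at each step. The step between the round spermatid classes, 7.73-fold in mean CPM, exceeded every other step of the 7 genes on that scale, but per barcode the rise of Fdft1 into pachytene (log2 3.13) was larger.

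In elongating spermatids Cyp51 was lower by 1.46 ± 0.18 (edgeR adjusted p 2.3e-09), in 6 of 6 libraries, but the libraries spread widely there, from 42.0 through 65.5 to 206 CPM. The highest values, 206 in LFD replicate 3 and 119 in HFD replicate 3, came from the 2 libraries whose elongating barcodes were shallow, with medians of 3686 and 3714 UMIs against 10020 to 16421 in the other 4. The part of depth in those values was not tested.

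**Figure D3:**
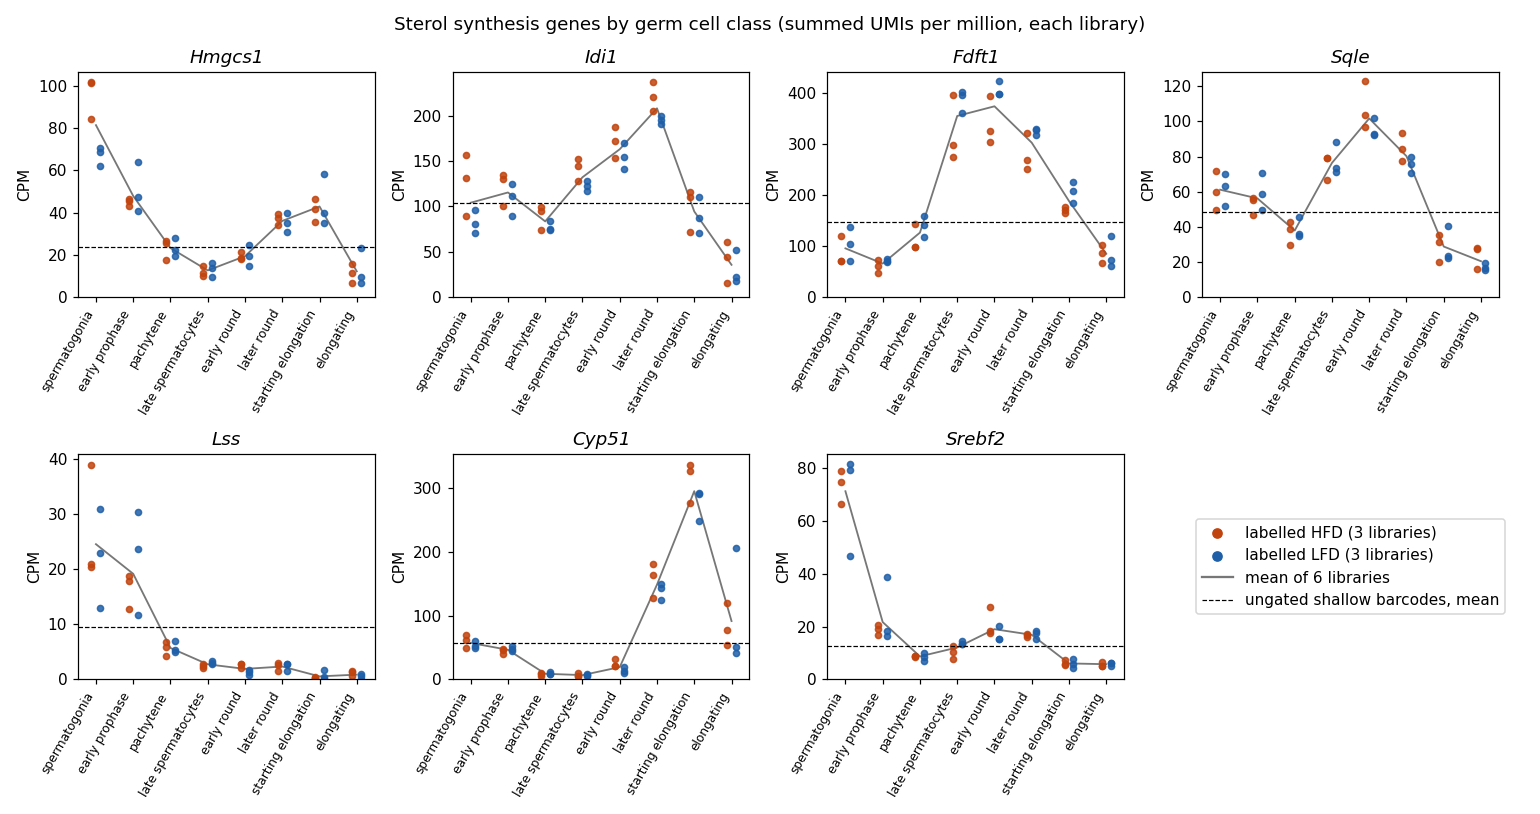
CPM of each gene (panels, y axis from 0) in the 8 germ cell classes (x axis) for each library labelled HFD (red) or LFD (blue), with the mean of 6 libraries as a line and the mean of ungated shallow barcodes as a dashed line. Cyp51 runs from under 12 CPM in pachytene and late spermatocytes to 248.6 to 337 CPM in spermatids starting elongation.

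The background of free RNA was gauged in 17681 shallow barcodes, those under 3000 UMIs whose marker scores were all under 0.3. They held 57.1 CPM of Cyp51, 148 of Fdft1, 104 of Idi1, 48.5 of Sqle, 23.8 of Hmgcs1, 12.8 of Srebf2 and 9.56 of Lss as means of 6 libraries. In spermatogonia Srebf2, Hmgcs1, Lss and Sqle were above this level in 6 of 6 libraries (exact sign-flip p 0.0312 each), while Cyp51 and Idi1 were not told apart from it (exact p 0.781 and 0.719) and Fdft1 was below it. Fdft1 and Sqle from late spermatocytes to later round spermatids, and Cyp51 in later round spermatids and at the start of elongation, were above it in 6 of 6 libraries. So were Srebf2 in early prophase and both round classes, and Hmgcs1 in later round spermatids and at the start of elongation. Idi1 was above it in 6 of 6 libraries from late spermatocytes to later round spermatids, and in 0 of 6 in pachytene and elongating spermatids. Cyp51 in elongating spermatids was above it in 5 of 6 (exact sign-flip p 0.156), and the spermatid values of Lss were below it in 6 of 6. A value not above this level is not thereby free RNA, because free RNA may be only a part of a deeper barcode. Over pooled libraries the spermatid gene Prm1 measured 1986 CPM in spermatogonia against 12597 in the shallow barcodes. The part of free RNA in the germ classes was not tested.

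Among somatic classes, Sertoli cells (533 barcodes) and macrophages (255 barcodes) had enough barcodes in each library for comparison. No gene was above the shallow level in 6 of 6 libraries in either class. The nearest was Hmgcs1 in Sertoli cells, 15.2 to 53.9 CPM and above it in 5 of 6 (exact sign-flip p 0.125), and in macrophages Hmgcs1 was below it in 6 of 6. Sertoli gate barcodes of HFD replicate 2 had a median of 11088 UMIs against 1913 to 4442 in the other 5 libraries. Of the Sertoli markers kept out of the gate, 2 of 5 were highest in that class, the others being higher in another class. A second reference takes Prm1, a spermatid gene, as the measure of free RNA in a class. By it, over pooled libraries, free RNA would give 15.7 CPM of Hmgcs1 and 109 of Fdft1 in Sertoli cells, where 36.4 and 178 were measured, and 72.5 CPM of Fdft1 and 47.4 of Idi1 in macrophages, where 149 and 90.7 were measured. Single libraries held 80.0 to 336 CPM of Fdft1 in Sertoli cells. Sqle (24.1 against 33.2), Lss and Srebf2 in Sertoli cells lay below this reference, as did Hmgcs1 (8.25 against 10.5) and Lss in macrophages. Idi1 (77.3 against 71.3) and Cyp51 (39.4 against 36.6) in Sertoli cells lay close to it. The 2 references differ, and no test was made of the second.

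Leydig cells, the steroid-making class in which this pathway is best known, could not be compared. Only 13 barcodes met their gate, 1 of which was the whole Leydig class of LFD replicate 2 with 262539 UMIs. The 7 Leydig gate genes summed to 499 CPM in that barcode and to 4664 to 23918 CPM in the other 5 libraries. In the Sertoli class they summed to 0 to 16.9 CPM in 5 libraries and 78.9 in LFD replicate 2. Summed over the 13, they held 68 Fdft1, 65 Idi1, 36 Cyp51, 33 Hmgcs1, 24 Sqle, 5 Srebf2 and 4 Lss UMIs, and that 1 barcode gave 60 of the Fdft1 and 34 of the Idi1 UMIs. The peritubular and stromal class had 155 barcodes but 3 in HFD replicate 3, and the endothelial class 1 barcode.

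The other genes of the pathway were mostly spermatogonial. Of 16 other synthesis enzymes, 12 had their highest germ class mean in spermatogonia, as did 6 of 8 genes that control the pathway and 6 of 8 for sterol uptake, transport and storage. From spermatogonia to early prophase 10 of the 16 enzymes were lower and none higher, with a median log2 change of -1.07 against 0.11 over all genes tested. Into late spermatocytes 9 enzymes were lower and 3 higher (median -0.79, all genes -0.11), whereas 4 of the 7 members were higher and 2 lower (median 0.47).

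At the start of elongation 5 of the 16 enzymes were higher and 2 lower (median 0.08, all genes -0.09). Fdps, which makes the farnesyl precursor that Fdft1 joins into squalene, was the most abundant of the 16 and had a course with 2 peaks. Its mean was 202 CPM in spermatogonia, 29.1 in early round spermatids and 215 in spermatids starting elongation, a rise of log2 2.52 ± 0.16 over the later round class (edgeR adjusted p 5.5e-20). The higher of its 2 means thus fell in the same class as the peak of Cyp51, but its 2 peaks were not tested against each other.

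Of the controls, Insig2, which holds the SREBP precursor in the endoplasmic reticulum, had a mean of 157 CPM in late spermatocytes and 5.46 at the start of elongation. It fell by 2.89 ± 0.21 at the start of elongation (edgeR adjusted p 2.1e-17), where 1 of the 8 controls was higher and 4 were lower. Npc2, a lysosomal sterol carrier, was highest in spermatogonia (110 CPM) and 11.4 to 11.98 CPM in the 2 elongation classes. Crem, a cAMP-responsive regulator of postmeiotic transcription, rose at each step from 60.4 CPM in spermatogonia to 627 in later round spermatids and fell at the 2 steps after it (edgeR adjusted p 0.018 or less at each).

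The genes closest in course were sought among 6832 genes of at least 20 CPM on average over 60 class sums from 6 libraries, with Pearson's r of log2(CPM + 1) as a description. Cyp51 was most like Zfand6 (r = 0.942) and Rnf4 (0.923) and Lss most like Bnip3 (0.924) and Atm (0.916), and for Fdft1 a gene of close course was Dyrk3 (0.936). Idi1 was closest to Txndc9 (0.908) and Creld2 (0.897), Sqle to Kpna2 (0.879) and Agfg1 (0.878), Hmgcs1 to Tjp1 (0.868) and Nup43 (0.832) and Srebf2 to Wdr5 (0.810) and Hnrnph2 (0.808). None of the genes named here as alike belongs to the pathway lists. Among the members themselves, over 8 class means, Idi1 and Sqle (r = 0.895) and Lss and Srebf2 (0.802) were the closest pairs, and the 60 sums share libraries and cell classes.

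The diets were compared next, in the whole testis and in the 10 classes with at least 20 barcodes in each library. No member was called in any of the 11 comparisons by edgeR (smallest adjusted p 0.658 over 67 gene and class pairs), and the share of all genes called was 0% in each. At an unadjusted p under 0.05, 25 to 661 genes of 3581 to 20727 tested passed per comparison, and DESeq2 called 0 to 2 genes, none a member. Of the 67 pairs, 4 had an unadjusted p under 0.05.

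In the whole testis Fdft1 was 206, 179 and 176 CPM in the libraries labelled HFD and 222.4, 213 and 247 CPM in those labelled LFD. Srebf2 was 12.8, 13.0 and 11.9 against 13.9, 13.6 and 16.7 CPM. These 2 of the 7 genes had diets that did not overlap, where 6.68% of all genes did not, and neither difference passed the test. The log2 difference, HFD minus LFD, was -0.22 ± 0.14 for Fdft1 and -0.17 ± 0.15 for Srebf2 (edgeR adjusted p 0.986 for both). On log2(CPM + 1) it was -0.11 for both genes between the replicate 1 libraries, against -0.37 for Fdft1 and -0.26 for Srebf2 among the other 4.

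The other 5 genes overlapped between the diets in the whole testis. Their log2 differences lay between -0.05 for Lss and 0.19 for Idi1. The 95% interval by a normal quantile was -0.32 to 0.39 for Cyp51, -0.30 to 0.27 for Hmgcs1, -0.25 to 0.32 for Sqle and -0.09 to 0.47 for Idi1, and differences anywhere between these bounds are compatible with the data. Such bounds are narrower than the quasi-likelihood F test would give.

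Within classes, Cyp51 in early round spermatids had the smallest unadjusted p. Libraries labelled HFD held 20.2, 31.3 and 21.6 CPM and those labelled LFD 13.3, 9.43 and 19.6 CPM, without overlap, in a class where 11.5% of genes did not overlap. These values rest on 13 to 102 UMIs in 23 to 55 barcodes per library, and 0 of 6 were above the shallow barcodes (mean 57.1 CPM). Of the barcodes in this class, 30.8% lay within 0.1 of the gate score. The difference was log2 0.79 ± 0.26 (edgeR unadjusted p 0.0082, adjusted p 0.658). It was 0.57 between the replicate 1 libraries and 0.88 among the other 4, on log2(CPM + 1). In the 2 classes where Cyp51 is abundant, later round and starting elongation, the difference was 0.13 ± 0.14 and 0.17 ± 0.15 with overlapping diets.

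Fdft1 lay below 0 in all 8 germ classes, between -0.29 and -0.18, and Idi1 above 0 in all 8, between 0.12 and 0.52. The classes come from the same 6 libraries, so these are not separate observations. For Fdft1 in early round spermatids, with 394, 305 and 325 CPM labelled HFD and 423, 398 and 398 labelled LFD, the difference was -0.28 ± 0.12 (edgeR unadjusted p 0.038, adjusted p 0.658). HFD replicate 1 sat nearest the LFD values, and without it Fdft1 was called lower in early round spermatids (-0.43, adjusted p 0.0166) and late spermatocytes (-0.46, adjusted p 0.0172), where 4.97% and 5.84% of all genes were then called. Between the replicate 1 libraries of the 2 diets the log2 difference of Fdft1 was -0.10 in early round spermatids and -0.0018 in late spermatocytes, against -0.34 and -0.41 among the other 4.

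Hmgcs1 and Idi1 in spermatogonia were the remaining pairs under 0.05 before adjustment. Hmgcs1 measured 84.5, 102 and 101 CPM labelled HFD and 68.8, 70.5 and 61.9 labelled LFD, without overlap (6.60% of genes in that class), with a difference of 0.45 ± 0.18 (edgeR unadjusted p 0.031, adjusted p 0.995). Idi1 measured 89.3, 156 and 131 against 80.9, 96.5 and 70.3 CPM, which overlap, with a difference of 0.52 ± 0.23 (unadjusted p 0.048, adjusted p 0.995). Between the replicate 1 libraries Hmgcs1 differed by 0.29 and Idi1 by 0.14, and among the other 4 by 0.61 and 0.79. Over the 60 pairs tested within classes, 7 did not overlap between diets. The share of all genes without overlap was 9.86% in early prophase, 9.19% in pachytene, 8% in late spermatocytes, 5.96% in later round spermatids, 5.95% at the start of elongation, 2.62% in elongating spermatids, 5.4% in Sertoli cells and 3.91% in macrophages. Besides the pairs given above, the 7 were Lss and Srebf2 in late spermatocytes, Idi1 in later round spermatids and Fdft1 at the start of elongation.

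**Figure D4:**
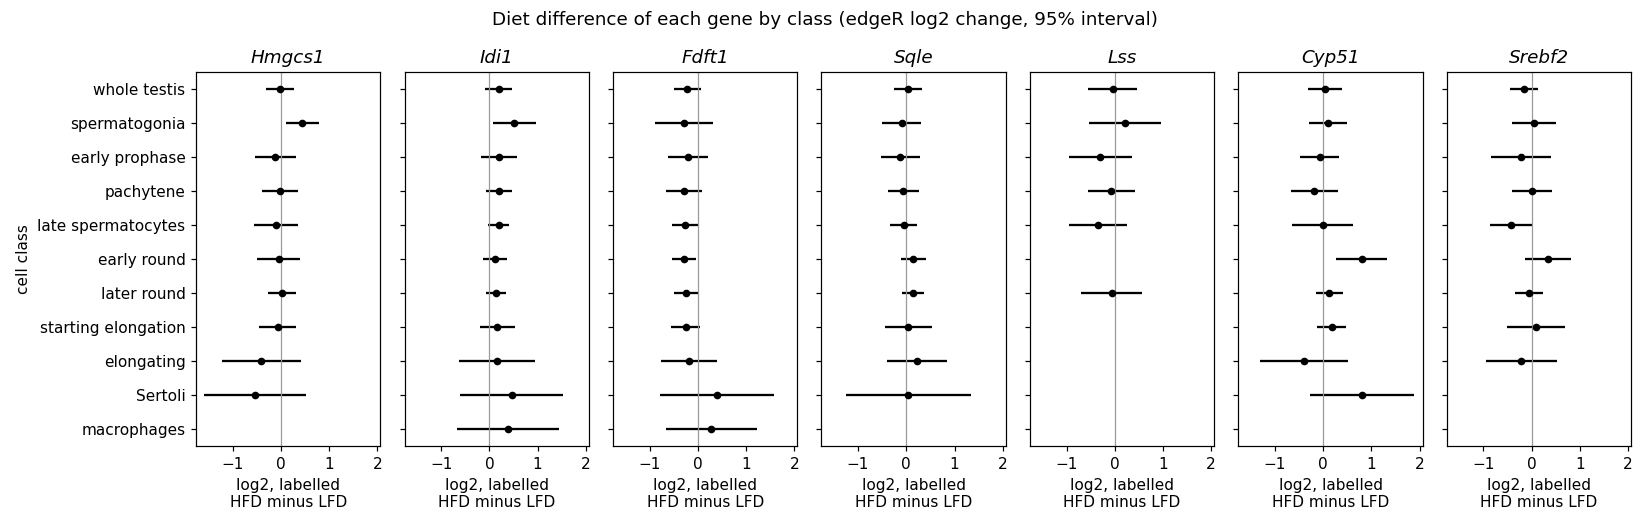
Log2 difference of each gene (panels) between libraries labelled HFD and LFD (3 each), in the whole testis and in each class (rows), as the edgeR estimate with its 95% interval. The intervals use a normal quantile and are narrower than the quasi-likelihood F test would give. Pairs with too few counts to test are blank. The estimates lie between -0.53 and 0.81, none passed after adjustment, and Fdft1 lies below 0 and Idi1 above 0 in each germ class.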

How the data were processed

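Single-cell libraries were made from fresh mouse testis on the 10x Genomics Chromium system, with a target of 10000 cells each (the labels name the v2 kit, the study's methods another version). The deposited values were raw UMI counts per gene and barcode, which the authors made with Cell Ranger 6.0.1 on mm10. The study's filter of 200 to 40000 genes removed 0 barcodes. All columns of counts were used. Doublets were not removed by a caller, and an alternative left out the deepest 5% of each class and barcodes in distant gates.

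Members, lists and markers were chosen with earlier results of these data known. Each barcode of at least 1000 UMIs took the class with the highest marker score (mean log2 of UMIs + 1 over the number its depth predicts + 1) at or over 0.5, or 1 for the 2 elongation classes, thresholds set after seeing the data. UMIs were summed per class and library, with at least 20 barcodes in each. Whether each library was a separate mouse is stated only in the study's methods, so p-values measure the spread between libraries. Sums were tested with edgeR 4.0.16 (TMM, default filter, quasi-likelihood, Benjamini-Hochberg over all genes) in R 4.3.3, with library as a term for steps and no covariate for diets. The fits were tested on simulated data with known changes. Alternatives were DESeq2 1.42.0, library totals, no filter, UMIs per barcode, stricter gates, a 2000 UMI minimum, no library term, means over barcodes, a replicate block and each library left out. A batch term and leaving out both replicate 1 libraries were added after seeing the data. Named genes were the members, the most abundant other pathway genes and the 2 genes most alike each member. Some genes that this rule picks are not reported here. Gene positions are from GENCODE M21. Limits that a count of 0 allows use 3 counts and cover counting error only.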

Additional observations from a re-analysis of the deposited data

Results flagged for a closer look

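In 84 sets of 6 library values (7 genes in 12 classes or pools), 5 held 1 library far from the rest, where chance alone gives about 4.2. In early prophase spermatocytes LFD replicate 3 held 63.96 CPM of Hmgcs1 (others 40.8 to 47.6) and 38.7 CPM of Srebf2 (others 16.5 to 20.7), and that library had 78 barcodes in the class, the fewest of the 6. Without it Srebf2 was still lower in early prophase than in spermatogonia, by 1.69 on the log2 scale (edgeR adjusted p 1.1e-11). LFD replicate 1 held 1.77 CPM of Lss in spermatids starting elongation (others 0 to 0.470), and 17.7 CPM of Lss in macrophages (others 0 to 3.89, with 4 UMIs in all). HFD replicate 3 held 110 CPM of Cyp51 in Sertoli cells (others 29.8 to 45.8), in a class of 24 barcodes. The part of depth and barcode number in these values was not tested.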

How the results depend on the processing

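Between early and later round spermatids 3 members were called, 5 with library totals and 6 with DESeq2, and from late spermatocytes to early round spermatids 5, with 3 when low counts were not filtered and 2 with DESeq2. Leaving out a single library gave 0 to 1 members called for diet in early round spermatids and in late spermatocytes, the 1 being Fdft1 without HFD replicate 1, and other alternatives left the counts of members within 1.5 times (227 of 233). Turns of direction are listed only where TMM or the alternative passed 0.05 (adjusted p, or exact sign-flip p per barcode). Directions turned under DESeq2 for Idi1 into early round spermatids (log2 -0.0019), for Fdft1 (0.27) and Sqle (0.23) into later round spermatids and for Sqle into pachytene (0.090, and 0.16 with no filter on low counts). Counted per barcode they turned for Idi1 into early prophase (-0.69), for Hmgcs1 (1.19), Idi1 (1.76), Lss (0.50), Sqle (1.65) and Srebf2 (0.96) into pachytene, for Idi1 (-0.33) and Srebf2 (-0.86) into later round spermatids, and for Srebf2 into elongating spermatids (-1.69). The cause was not tested. Of 721 values for steps, 652 were counted as unchanged. That count includes pairs called on neither scale whose sign turned. Examples are Fdft1 into early round spermatids (log2 0.12 by TMM, -0.22 by DESeq2) and Lss into later round spermatids (0.46 by TMM, -0.33 per barcode). The replicate numbers do not pair the libraries throughout: deviations of same-numbered libraries correlated at 0.52, -0.05 and 0.17 for replicates 1, 2 and 3. The value for replicate 1 was the highest of all pairs across the diets. HFD replicate 3 correlated with LFD replicate 2 at 0.36, and HFD replicate 2 with LFD replicate 3 at 0.25. With replicate number as a block 0 members were called for diet in each comparison, while calls over all genes went from 0 to 31 in the whole testis, 12 in early round and 56 in elongating spermatids. Over all genes, leaving out HFD replicate 1 took the calls for diet from 0 to 475 in early round spermatids and 656 in late spermatocytes and 68 in elongating spermatids, and keeping low counts took them to 52 in pachytene and 32 in early round spermatids. A stricter gate left too few early round barcodes for the 2 steps it borders. Depth limits Lss in spermatids and each member in somatic classes.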
